A study of Mus musculus with 2 samples.

Results

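Etv4 and Etv5 binding regions were examined at 10 mouse genes for inflammatory cytokines and prostaglandin synthesis (Ptgs2, Il6, Il11, Lif, Il1a, Il1b, Cxcl1, Cxcl2, Ccl2 and Csf1), out of 21938 protein-coding genes. The genes were taken by name, and every region that lay in one of them or within 50 kb of it was included. The lists come from 2 ChIP-seq libraries, 1 made with an antibody to Etv4 and 1 with an antibody to Etv5. ChIP-seq sequences the DNA that an antibody recovers together with a crosslinked protein. Both libraries were made from EpRas cells, an epithelial line from the mouse mammary gland (EpH4) that carries oncogenic H-Ras. The cells were grown in 4% serum and received 1 ng/ml TGF-β3 for 1.5 h, so both libraries share the Ras transformation and the stimulation. Untreated cells, the parental EpH4 line and an input library were not analysed here. Each antibody has 1 library, so no difference between antibodies has a replicate check and none was tested. In all, 13636 Etv4 and 8297 Etv5 regions were listed. A region list does not measure expression. As a check of the label, Etv4 midpoints within 2 kb of a transcript start were counted at marker genes. They were found at 4 of 7 epithelial markers (Cldn4, Krt7, Krt8 and Krt18, but not Krt19, Epcam or Cdh1). The counts were 2 of 5 immune, 0 of 2 endothelial and 0 of 2 fibroblast markers, compared with 17.9% of all protein-coding genes. For Etv5 the counts were 2, 0, 0 and 0, compared with 10.6%. Counts this small do not establish the cell type.

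Ptgs2 encodes cyclooxygenase-2, the inducible enzyme at the first committed step of prostaglandin synthesis. Il6, Il11 and Lif encode cytokines that signal through the shared receptor subunit gp130 (Il6st). Il1a and Il1b encode ligands of the interleukin-1 receptor, and Cxcl1 and Cxcl2 chemokines that attract neutrophils through Cxcr2. Ccl2 attracts monocytes, and Csf1 is a growth factor for macrophages. Genes of this kind are classic targets of AP-1, NF-κB and C/EBP factors. Etv4 and Etv5 belong to the ETS family, whose members recognise a GGAA core, and ETS proteins often bind next to AP-1.

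An Etv4 region was listed at 8 of the 10 genes, compared with 53.4% of all protein-coding genes. An Etv5 region was also listed at 8 of 10, compared with 42.7%. The Etv5 count depended on the distance rule. Within 20 kb it was 4 of 10, compared with 29.2% of all protein-coding genes. With regions kept only where the nearest protein-coding start was the gene's own, it was 5 of 10, compared with 19.6%. A pair of overlapping Etv4 and Etv5 regions (at least 1 bp in common) was found at Ptgs2, Lif, Il1a, Il1b, Cxcl1 and Cxcl2, which makes 6 of 10 against 29.5% of all protein-coding genes. This count also depended on the rule. It was 4 of 10 within 20 kb, with 50% of both regions in common, or with midpoints within 250 bp. Shares over all protein-coding genes were not computed for these pair rules. The counts near transcript starts were lower. Ptgs2, Il11, Cxcl1 and Csf1, 4 of 10, had an Etv4 midpoint within 2 kb of one of their starts (17.9% of all protein-coding genes). For Etv5 this count was 0 of 10, where the share over all protein-coding genes was 10.6%. At other distances, the Etv4 count was 2 of 10 within 1 kb (16.3% of all), and the Etv5 count 1 of 10 within 5 kb (13.3% of all). The members are not independent of each other in these counts. Il1a and Il1b shared 2 regions of each list, and the 6 Etv4 regions and 1 Etv5 region at Cxcl1 were those at Cxcl2.

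**Figure D1:**
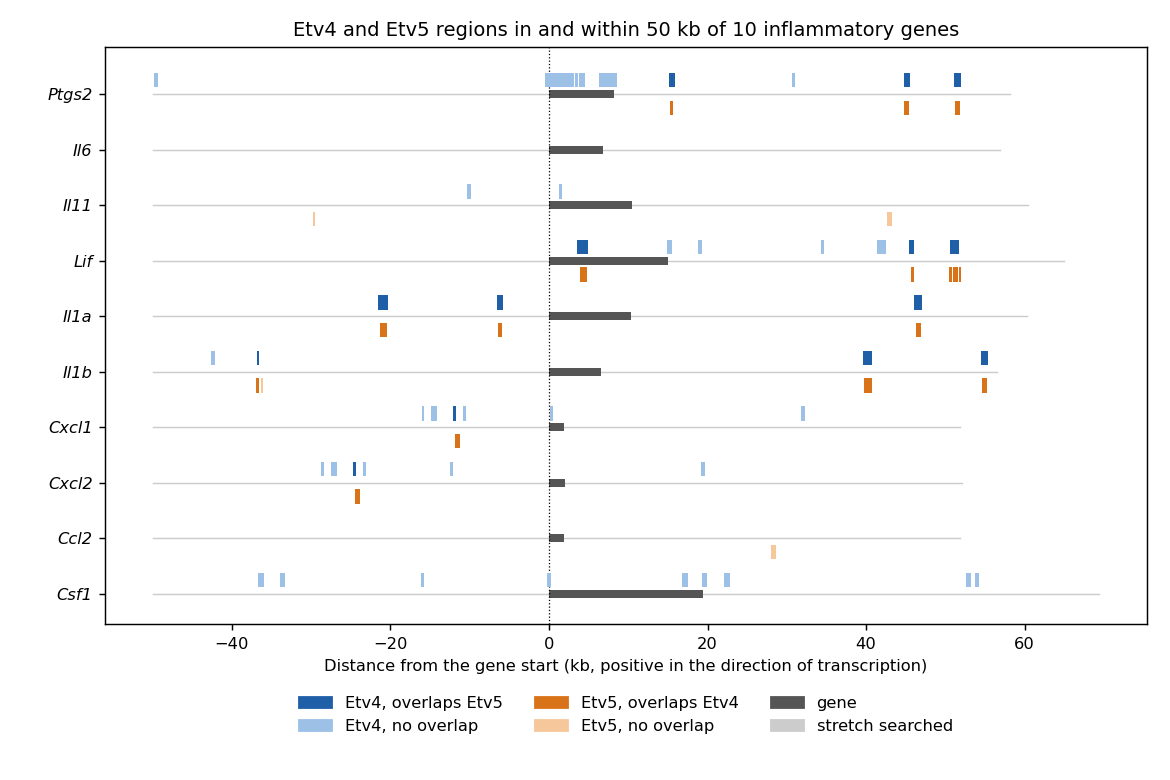
Each row is 1 gene, drawn with its start at 0 and its direction of transcription to the right (distance in kb). Etv4 regions are above the gene and Etv5 regions below it, drawn to scale and dark where the lists overlap; Il6 has none, Csf1 has 9 Etv4 regions and no Etv5 region, and the Etv5 region nearest to the start of a member is centred 4.36 kb from it, in Lif.

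Counted once each, 38 Etv4 and 17 Etv5 regions lay in or near the 10 genes. This is 2.24 Etv4 regions for each Etv5 region, compared with 1.64 in the whole lists. Csf1 and Ptgs2 together held 18 of the 38 Etv4 regions. Of the Etv4 regions, 11 (28.9%, exact 95% interval 15.4 to 45.9%) overlapped an Etv5 region, and the share in the whole list was 37.8%. For Etv5, 13 regions met an Etv4 region (76.5%, interval 50.1 to 93.2%), with 63.2% in the whole list. Both list-wide shares lay inside the intervals, which cover counting error only. In 9 of the 13 overlapping pairs the whole Etv5 region lay within the Etv4 region. By midpoint, 26 of the Etv4 regions were intergenic, 8 intronic and 4 exonic. Of the Etv5 regions, 14 were intergenic, 2 intronic and 1 exonic.

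**Figure D2:**
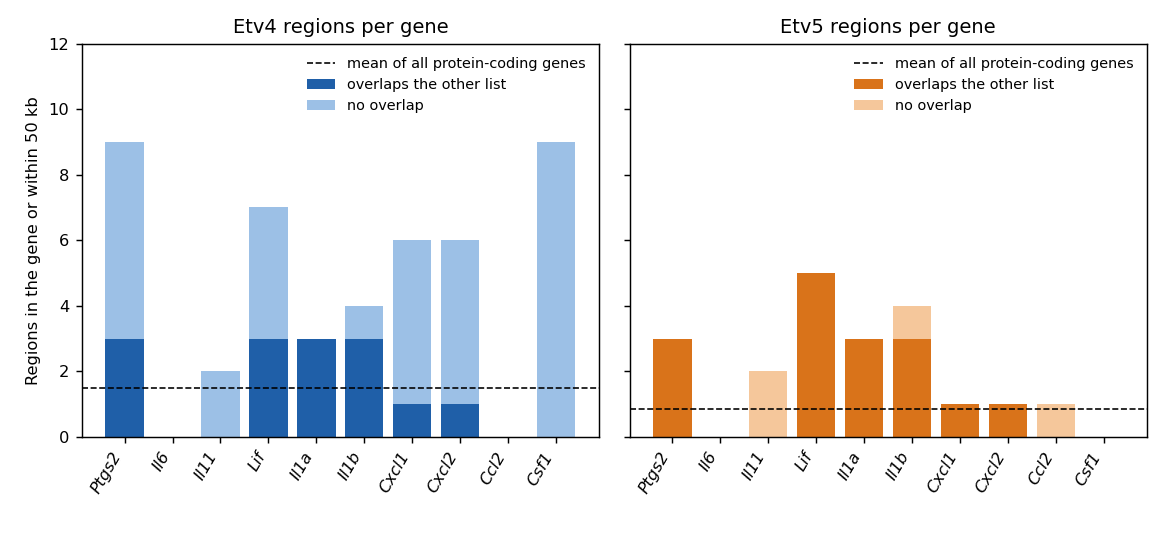
Bars give the number of regions in each gene or within 50 kb (Etv4 left, Etv5 right), split by overlap with the other list, and the dashed line is the mean over all protein-coding genes (1.48 for Etv4 and 0.84 for Etv5). Ptgs2 and Csf1 stand highest for Etv4 with 9 regions each, and Lif stands highest for Etv5 with 5.

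Ptgs2 (ENSMUSG00000032487, plus strand, chr1:150100031-150108227 in mm10) was the member most extensively covered by Etv4 regions. Of its 8.2 kb, 76.9% lay in 4 Etv4 regions, and 0% in Etv5 regions. The first of these regions, at chr1:150099568-150103145, was 3578 bp long. It spanned the start of the gene and stood at number 1017 of 13636, which places it at 7.46% of the list (the number is the authors' region label, whose criterion is not stated). The last, at chr1:150106287-150108661, ran over the end of the gene with 2375 bp and number 1369. Between them were regions of 446 bp and 801 bp. Regions of at least 2 kb numbered 122 in the whole Etv4 list, and these 2 were the only ones at the 10 genes. Among protein-coding genes, 88 (0.401%, Ptgs2 included) were covered by Etv4 regions to at least this extent. Of these 88, 41 had no base in an Etv5 region.

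Outside the gene, Ptgs2 had an Etv4 region 49.6 kb upstream and 4 downstream, of which 3 overlapped Etv5 regions. The overlapping pairs were centred 15.5, 45.1 and 51.5 kb from the start by their Etv4 midpoints, and in each of them the Etv5 region lay wholly inside the Etv4 region. The farther pairs had low numbers in both lists. At 45.1 kb the Etv4 region had number 1306 (9.58% of the list) and the Etv5 region number 1400 (16.9%), and at 51.5 kb the numbers were 1138 (8.35%) and 1545 (18.6%). At 15.5 kb they were 4729 and 7473. The nearest protein-coding start was that of Ptgs2 for all 9 Etv4 and 3 Etv5 regions. At least 9 Etv4 regions were found at 1.79% of all protein-coding genes, and at least 3 Etv5 regions at 9.73%.

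The sequences below are from the Ptgs2 locus, on GRCm38, the assembly that mm10 names. The first is the 250 bases before the gene start under the long Etv4 region, as given by RefSeq (GRCm38.p6, chr1:150099781-150100030, plus strand). The second is the centre of the stretch shared by both lists 51.5 kb downstream (chr1:150151453-150151652), and the third is the part of the 45.1 kb pair where patterns lie close together (chr1:150145177-150145225). The last comes from the Etv4 region 49.6 kb upstream (chr1:150050367-150050459). Capitals mark the patterns searched for throughout. These were AP-1 (TGACTCA, which reads TGAGTCA on the other strand), ETS (CAGGAAGT or CCGGAAGT), RUNX (TGTGGTT or TGTGGTC), kappaB (GGANTTTCC), C/EBP (TTGCGCAA, TTGCACAA or TTGCATCA) and CRE (TGACGTCA), each on both strands. Only these letters were counted, so sequences with other bases around a GGAA core were not counted as ETS.
Ptgs2 before the start: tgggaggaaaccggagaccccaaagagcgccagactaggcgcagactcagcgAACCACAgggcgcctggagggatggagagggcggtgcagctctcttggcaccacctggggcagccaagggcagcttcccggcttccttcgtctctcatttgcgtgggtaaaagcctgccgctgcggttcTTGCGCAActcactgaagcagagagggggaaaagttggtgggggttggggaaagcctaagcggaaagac
Ptgs2 51.5 kb downstream: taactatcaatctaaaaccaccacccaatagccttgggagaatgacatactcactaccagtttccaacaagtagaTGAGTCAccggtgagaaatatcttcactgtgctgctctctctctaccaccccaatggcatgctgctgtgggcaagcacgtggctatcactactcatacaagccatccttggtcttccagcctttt
Ptgs2 45.1 kb downstream: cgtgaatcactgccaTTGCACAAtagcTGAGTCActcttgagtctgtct
Ptgs2 49.6 kb upstream: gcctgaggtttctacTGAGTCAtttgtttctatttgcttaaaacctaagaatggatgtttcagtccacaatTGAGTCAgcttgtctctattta

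The promoter window held a C/EBP and a RUNX match but no AP-1, ETS, kappaB or CRE match. In the downstream pairs, AP-1 matches lay 35 and 28 bp from the midpoints of the Etv4 regions at 51.5 and 45.1 kb. The long Etv4 region over the start held 0 matches to these exact ETS letters along its 3578 bp, and other GGAA sequences in it were not counted. An ETS match was found in the Etv4 region at chr1:150103833-150104633, from 150103968 to 150103975, and another in the Etv4 region of the pair at 15.5 kb, from 150115250 to 150115257. The latter ended just before the first base of the Etv5 region (150115266).

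**Figure D3:**
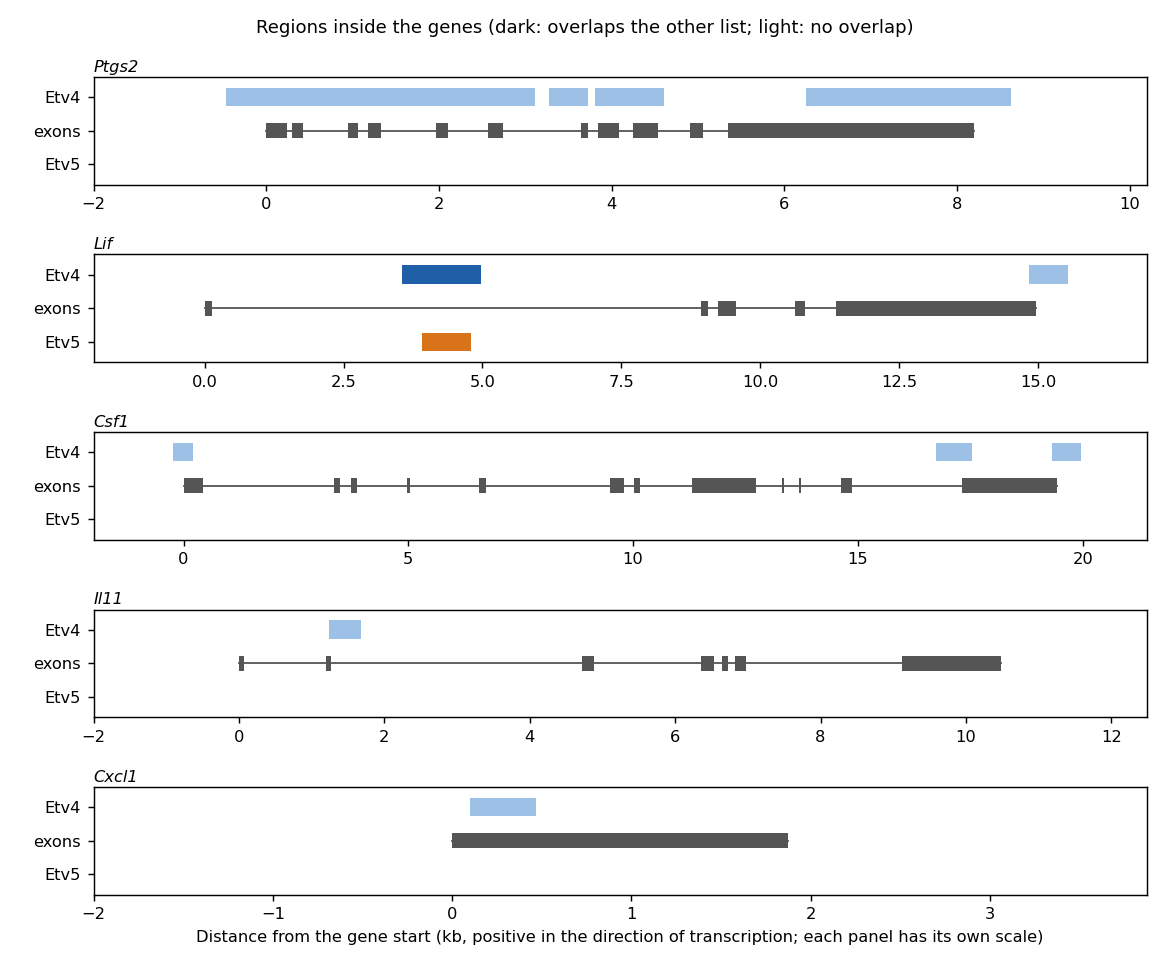
The 5 members with a region inside the gene are drawn from their starts (distance in kb), with exons merged over transcripts, Etv4 regions above and Etv5 regions below. Etv4 regions fill 76.9% of Ptgs2 and smaller parts of the other genes, and the only Etv5 region lies in the first intron of Lif.

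Of the gp130 cytokines, Lif was the richest in regions, and Il6 had none. Lif (ENSMUSG00000034394, plus strand, chr11:4257557-4272514) had 7 Etv4 and 5 Etv5 regions. At least as many were found at 4.08% of protein-coding genes for Etv4 and at 2.53% for Etv5. An intronic pair inside the gene was centred 4.26 kb from the start in the Etv4 list (chr11:4261113-4262523, 1411 bp, number 987) and at 4.36 kb in the Etv5 list (chr11:4261475-4262355, number 2347). This was the only Etv5 region inside any of the 10 genes. Etv4 regions covered 10.3% of Lif and Etv5 regions 5.89%. The other pairs lay 45.8 and 51.2 kb downstream of the start. At the latter, the Etv4 region of 1160 bp (number 3040) overlapped 3 Etv5 regions, with numbers 5965, 1383 and 7697.

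The following sequences are from Lif (plus strand, GRCm38). The first is the centre of the intronic stretch that the lists share (chr11:4261816-4262015), and it held none of the 6 patterns. The ETS match of this pair, CAGGAAGT from 4262142 to 4262149, was inside both regions but 327 bp from the Etv4 midpoint and 230 bp from the Etv5 midpoint. The second, from the pair at 51.2 kb (chr11:4308196-4308289), shows an ETS and a C/EBP match in the stretch covered by both lists. That ETS match was 2 bp from the midpoint of the Etv5 region.
Lif intron: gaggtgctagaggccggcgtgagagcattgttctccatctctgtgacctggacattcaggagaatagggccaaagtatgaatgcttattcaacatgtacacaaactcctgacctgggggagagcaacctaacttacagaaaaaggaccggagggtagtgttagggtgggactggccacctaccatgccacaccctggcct
Lif 51.2 kb downstream: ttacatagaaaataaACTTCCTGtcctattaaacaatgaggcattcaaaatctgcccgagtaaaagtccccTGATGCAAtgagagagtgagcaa

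Il11 (ENSMUSG00000004371, minus strand, chr7:4772373-4782859) had 2 regions in each list, none of which overlapped the other list. An Etv4 region of 439 bp (chr7:4781182-4781620, number 9151) was centred in an intron 1.46 kb from the start. The remaining regions belonged by distance to neighbouring genes. The other Etv4 region, 10.1 kb upstream of Il11, was centred 0.017 kb from a start of Rpl28, and the Etv5 regions were 0.204 kb from a start of Kmt5c and 0.068 kb from a start of Ube2s. Il6 (ENSMUSG00000025746, plus strand, chr5:30013114-30019981) had no region of either list within 50 kb. The closest Etv4 region was 53.3 kb from the gene, and the closest Etv5 region 135 kb away. Over all members, the region nearest to the 50 kb limit on the inside was the Etv4 region of Ptgs2 centred 49.6 kb upstream. On the outside, the nearest regions were at Il1a, 52.7 kb (Etv4) and 52.6 kb (Etv5) from the gene.

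At the interleukin-1 genes the lists coincided at most of the regions. Il1a (ENSMUSG00000027399, minus strand, chr2:129299610-129309972) had 3 regions in each list, and every one of them belonged to an overlapping pair. None lay in the gene. A pair 6.22 kb upstream of the start (chr2:129315811-129316583 for Etv4 and chr2:129315876-129316465 for Etv5) was the closest. The pair 21 kb upstream held the lowest-numbered regions of each list among those at the 10 genes, with number 587 in the Etv4 list (4.3%, 1187 bp) and number 239 in the Etv5 list (2.88%, 915 bp). The third pair was 46.6 kb beyond the start on the other side, in an intron of the non-coding gene Gm14024, and the nearest protein-coding start there was that of Ckap2l. Il1b (ENSMUSG00000027398, minus strand, chr2:129364570-129371139) had 4 regions in each list. Of these, 2 in each list were the upstream regions of Il1a, which lie between both genes and closer to Il1a. A further pair, 36.7 kb upstream of Il1b, consisted of short regions late in the lists (299 bp and number 13616 for Etv4, 391 bp and number 6618 for Etv5). No Etv4 region lay closer than 33 kb to the Il1b gene, and no Etv5 region closer than 33.2 kb.

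Shown here from the Il1a pairs (plus strand, GRCm38) are the centre of the stretch shared 21 kb upstream (chr2:129330787-129330986), in which none of the patterns was found, and windows around neighbouring matches in the pairs at 6.22 kb (chr2:129315925-129315984) and 46.6 kb (chr2:129263513-129263596). The pair at 46.6 kb held ETS matches in opposite orientation, and an AP-1 match 102 bp from the Etv4 midpoint. At 6.22 kb, an ETS match was followed by a C/EBP match.
Il1a 21 kb upstream: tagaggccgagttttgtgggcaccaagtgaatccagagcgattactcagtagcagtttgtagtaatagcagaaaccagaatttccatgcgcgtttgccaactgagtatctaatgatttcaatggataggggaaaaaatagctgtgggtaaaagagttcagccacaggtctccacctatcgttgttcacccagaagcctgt
Il1a 6.22 kb upstream: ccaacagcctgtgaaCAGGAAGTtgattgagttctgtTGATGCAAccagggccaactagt
Il1a 46.6 kb on the other side: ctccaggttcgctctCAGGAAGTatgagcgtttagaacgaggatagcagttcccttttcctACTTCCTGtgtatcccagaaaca

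The chemokine genes differed from one another. Cxcl1 (ENSMUSG00000029380, plus strand, chr5:90891241-90893115) and Cxcl2 (ENSMUSG00000058427, plus strand, chr5:90903871-90905938) are neighbours and shared 6 Etv4 regions and 1 Etv5 region. An Etv4 region of 369 bp (chr5:90891340-90891708) lay inside Cxcl1, centred 0.283 kb from the start, and covered 19.7% of this short gene. It stood at number 12247, or 89.8% of the list. No region lay inside Cxcl2 or within 2 kb of its start. Upstream of Cxcl1, 4 Etv4 regions were centred between 10.6 and 15.9 kb from the start. The overlap with Etv5 there was marginal. The Etv4 region chr5:90879165-90879512 (number 11661) and the Etv5 region chr5:90879412-90879996 (number 2478, 29.9% of its list) had 101 bp in common. Ccl2 (ENSMUSG00000035385, plus strand, chr11:82035571-82037453) had 1 region, an Etv5 region 28.3 kb downstream (chr11:82063595-82064187, number 2088). It was closest to the start of Ccl11, and 51.3% of the 36-base sequences in it were found at more than 1 place in the assembly, the highest share among the regions at the 10 genes. The nearest Etv4 region was 1230 kb from Ccl2.

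The stretch around the Cxcl1 overlap (chr5:90879363-90879562) and the Etv4 region next to it, 10.6 kb upstream (window chr5:90880618-90880759), both contained TGACTCA. They are given on the plus strand of GRCm38.
Cxcl1 11.9 kb upstream: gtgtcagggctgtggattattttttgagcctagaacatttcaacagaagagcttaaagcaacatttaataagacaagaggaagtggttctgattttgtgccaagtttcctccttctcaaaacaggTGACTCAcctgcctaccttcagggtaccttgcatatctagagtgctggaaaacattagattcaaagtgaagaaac
Cxcl1 10.6 kb upstream: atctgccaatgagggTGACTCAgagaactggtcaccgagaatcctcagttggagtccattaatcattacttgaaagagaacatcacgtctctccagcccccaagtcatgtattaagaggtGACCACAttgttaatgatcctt

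Csf1 (ENSMUSG00000014599, minus strand, chr3:107741048-107760469) was listed by Etv4 only. It had 9 Etv4 regions, as many as Ptgs2, and 0 Etv5 regions. The nearest Etv5 region was 69.1 kb from the gene. In contrast to Ptgs2, its Etv4 regions were all below 1 kb in length, from 414 to 791 bp, and covered 5.7% of the gene. One of them (chr3:107760258-107760712, 455 bp, number 9993) spanned the start with its midpoint 0.016 kb away. The others lay in or at the end of the gene, 16 to 36.3 kb upstream and 22.4 to 54 kb downstream. The pair of regions farthest downstream was closest to a start of Ahcyl1. The lowest number at Csf1 was 3843 (28.2% of the list), so 9 regions accumulated here without any early in the list. AP-1 matches were present in the 3 upstream regions, in 500 bp around the midpoint, and 2 of them had 2 matches each. The 250 bases before the start are given on the minus strand from RefSeq (GRCm38.p6, chr3:107760470-107760719), because this is where the only kappaB match of all regions at the 10 genes was found.
Csf1 before the start: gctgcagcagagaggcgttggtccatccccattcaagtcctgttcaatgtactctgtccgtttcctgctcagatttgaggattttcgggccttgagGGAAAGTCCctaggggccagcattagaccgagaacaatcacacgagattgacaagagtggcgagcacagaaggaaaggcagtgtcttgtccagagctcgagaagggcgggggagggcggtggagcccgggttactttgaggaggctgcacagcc

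Promoter sequences (250 bases before the start in RefSeq) were matched for all of the 10 genes but Ccl2, with 10 entries in all, and only these 250 bases were searched. The kappaB pattern occurred in 4 of these 10 promoters, those of Csf1, Il6, Cxcl1 and Cxcl2, and in 1.07% of all 32851 promoters. AP-1 occurred in 4 (Il1a, Il6, Il11 and Lif), compared with 4.46%, and C/EBP in those of Ptgs2 and Il6, compared with 1.84%. The ETS pattern occurred in 0 of 10 and in 5.49% of all. RUNX occurred in 1 of 10 (Ptgs2), compared with 7.67%, and CRE in 0 of 10, compared with 1.55%. Il6, whose promoter held AP-1, kappaB and C/EBP matches, was the member with no region nearby.

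Regions at the 10 genes came from early to late in both lists by number. Their lengths ran from 299 to 3578 bp for Etv4 and from 316 to 915 bp for Etv5. The whole Etv5 list held 19 regions of at least 2 kb, of which 0 were at the 10 genes. Etv4 regions had a median length of 623 bp (589 bp in the whole list), and Etv5 regions of 590 bp (532 bp). The median position by number was 47% of the Etv4 list and 40.1% of the Etv5 list. In the first 10% of the lists by number were 5 of the 38 Etv4 regions and 1 of the 17 Etv5 regions. These were at Ptgs2, Lif and between Il1a and Il1b.

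**Figure D4:**
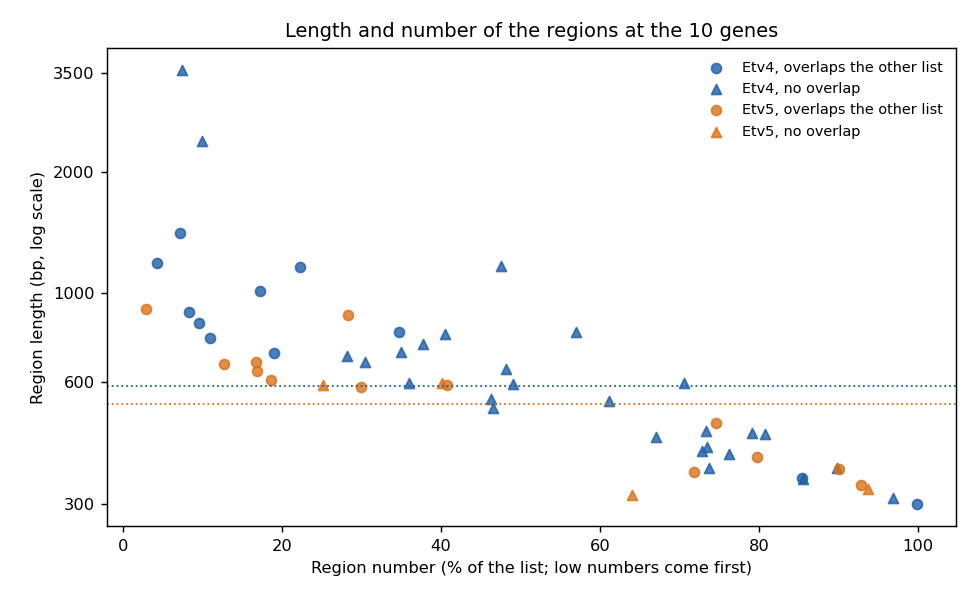
Each point is 1 region at the 10 genes, by its number as a percentage of its list (horizontal) and its length in bp (vertical, log scale); dotted lines are the median lengths of the whole lists, 589 bp for Etv4 and 532 bp for Etv5. Most overlapping Etv4 regions (circles) lie at the upper left, with low numbers and lengths above the median, and the longest points are the Etv4 regions of 3578 and 2375 bp in Ptgs2.

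In 500 bp around the midpoint, AP-1 was the most frequent pattern in Etv4 regions. It was present in 16 of 38 Etv4 regions (42.1%, interval 26.3 to 59.2%), compared with 37.4% of all Etv4 regions. In Etv5 regions it was present in 6 of 17 (35.3%, interval 14.2 to 61.7%), compared with 35.8%. All 6 Etv5 regions with AP-1 were among the 13 that overlapped an Etv4 region, and 0 were among the 4 others. In the whole Etv5 list AP-1 was present in 43.1% of overlapping and 23.2% of other regions. The ETS pattern was found in 2 Etv4 regions (5.26%, interval 0.644 to 17.7%, list-wide 10.2%) and in 6 Etv5 regions (35.3%, interval 14.2 to 61.7%, list-wide 7.93%). A 500 bp window reaches beyond a shorter region and leaves out the ends of a longer one. When the whole region was searched, 7 of 38 Etv4 regions (18.4%, list-wide 11.7%) and 4 of 17 Etv5 regions (23.5%, list-wide 8.22%) held the ETS pattern. In 200 bp it was held by 0 Etv4 regions (list-wide 5.0%) and 1 Etv5 region (5.88%, list-wide 3.51%), so the share in Etv5 regions depended on the window. The 4 Etv5 regions of the whole-region search belonged to pairs, so their matches were counted in the Etv4 regions too. RUNX was present in 13 Etv4 regions (34.2%, interval 19.6 to 51.4%, list-wide 24.7%), none of which overlapped an Etv5 region. In the whole Etv4 list the share was 27.2% in overlapping and 23.2% in other regions. The count of 0 depended on the window, since whole-region searches also found RUNX in the overlapping Etv4 regions 45.1 kb from the start of Ptgs2, 45.8 kb from that of Lif and 46.6 kb from that of Il1a. Among Etv5 regions RUNX was present in 4 of 17 (23.5%, list-wide 23.9%), 2 of them overlapping. C/EBP was present in 3 regions of each list (7.89 and 17.6%, list-wide 3.49 and 3.23%), and CRE in 0. In whole regions, C/EBP was found in 6 Etv4 regions (15.8%, list-wide 4.35%) and 3 Etv5 regions (17.6%, list-wide 3.64%). The C/EBP matches of these 3 Etv5 regions also lay in Etv4 regions, so they were counted in both lists.

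**Figure D5:**
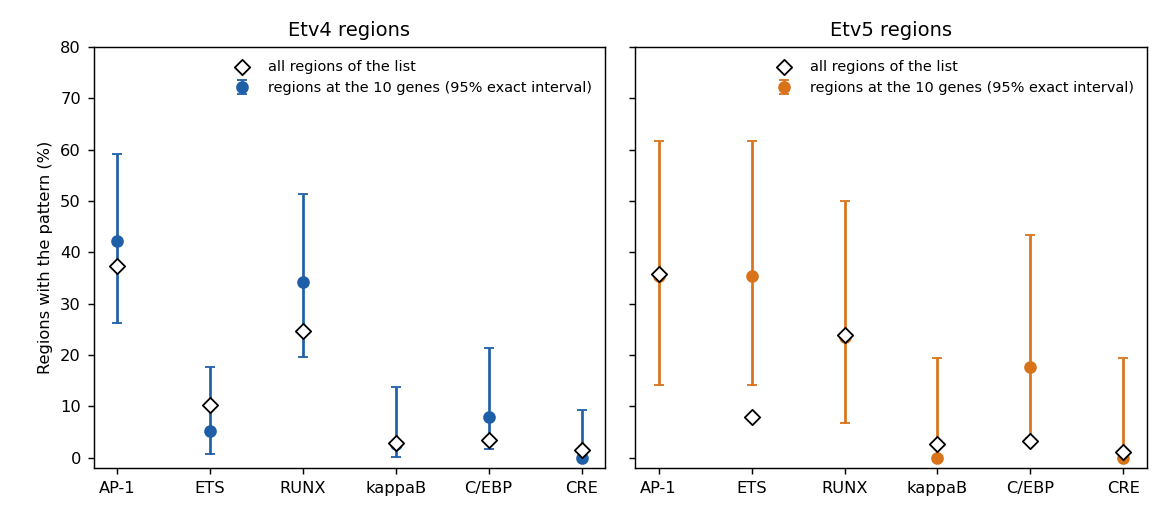
Filled points give the percentage of the 38 Etv4 regions (left) and 17 Etv5 regions (right) with each pattern in 500 bp around the midpoint, with exact 95% intervals, and open diamonds give all regions of the list. The diamonds lie within the intervals except for ETS and C/EBP in the Etv5 regions, where the shares at the 10 genes are 35.3 and 17.6%. The C/EBP matches of these Etv5 regions also lie in Etv4 regions. For ETS the share is 5.88% in 200 bp (list-wide 3.51%) and 23.5% in whole regions (list-wide 8.22%).

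The wider pathways were described with lists of 88 further genes, of which 87 were found in the annotation. Etv4 regions were listed at 51 (58.6%, all protein-coding genes 53.4%) and Etv5 regions at 46 (52.9%, all 42.7%) of these, with overlapping pairs at 34 (39.1%, all 29.5%). Near a start, there were 13 genes with Etv4 (14.9%) and 11 with Etv5 (12.6%), compared with 17.9 and 10.6% of all protein-coding genes. Pairs were found at 10 of 19 genes of prostaglandin synthesis and response, at 7 of 13 of the interleukin-6 family, at 6 of 15 of the interleukin-1 family, at 8 of 31 chemokines and receptors and at 3 of 9 colony-stimulating factors and related genes. In percentages, these were 52.6, 53.8, 40, 25.8 and 33.3%, and the last 2 were near the 29.5% of all protein-coding genes. In the same order, Etv4 midpoints near a start were found at 5, 4, 1, 1 and 2 genes, and Etv5 midpoints at 4, 5, 1, 0 and 1. Neighbouring genes again share regions, for example Ccl7, Ccl11 and Ccl12, whose 1 Etv5 region each is also that of Ccl2.

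A pair within 2 kb of a start (by the midpoint of either region) was present at 9 of the 87 genes (10.3%), at 0 of the 10 members and at 5.71% of all protein-coding genes. Any annotated transcript start was used, including those inside a gene. The 9 genes included enzymes and a transporter of the prostaglandin pathway. At Ptges, the terminal prostaglandin E synthase, an Etv4 region (chr2:30929445-30930072, number 3914) and an Etv5 region (number 7063) formed a pair whose nearer midpoint was 38 bp from a start. Ptges2 also had such a pair, 133 bp from a start. At Ptgs1, which encodes the constitutive cyclooxygenase (1131 bp), and the prostaglandin transporter gene Slco2a1 (13 bp), the pair was near an internal transcript start, 13.2 and 19.7 kb from the 5′ end of the gene. In the interleukin-6 pathway they were found at the gp130 ligand gene Clcf1 (Etv4 number 867 and Etv5 number 189), the receptor gene Il6ra, Stat3 and Socs3, the feedback inhibitor of this pathway. Socs3 had 9 Etv4 and 6 Etv5 regions in the gene or within 50 kb, and those over the gene covered 21.9 and 15.3% of it. Il34, which encodes the second ligand of the Csf1 receptor, had the lowest Etv4 number of these pairs (Etv4 number 251 and Etv5 number 206). This pair was 1135 bp from an internal transcript start and 16.2 kb from the 5′ end of the gene. Il34 had 8 Etv4 and 5 Etv5 regions in all.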

How the data were processed

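ChIP-seq was performed on 2 libraries of TGF-β3-treated EpRas cells, grouped by the antibody in the labels. The authors cut reads to 36 bp, mapped them to mm10 (Bowtie in the submitters' processing notes) and called regions per library with the one-sample mode of CisGenome, without an input library. The p-value cutoff stated in the paper was a loose one, so listed regions can include weak or false ones. The deposited files hold positions, a region number of unstated criterion, and a score that was the same in every region and was not used. They hold no read counts, so depth is unknown.

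Coordinates are printed counting from 1. GENCODE vM21 gave genes and transcript starts, and GRCm38 gave sequence. Members' distances run from the region midpoint to the 5′ end of the gene record. Counts near a start, nearest starts and the pathway genes' distances use any annotated transcript start. The members, gene lists and patterns were chosen with earlier results of these data known. All members were named, and of the pathway lists the genes with a pair within 2 kb of a start. Sequence windows were 200 bp around the stretch shared by the pair with the lowest Etv4 number, 250 bases before starts that a region spans, and, chosen after the patterns were seen, stretches with at least 2 matches within 100 bp of each other. Intervals are exact (Clopper-Pearson) at 95%. Functions were tested on simulated data. The software was Python 3.11.15 with pysam 0.24.0, numba 0.67.0, matplotlib 3.10.9, scipy 1.17.1, pandas 2.3.3 and numpy 2.4.6. Alternatives were the distance, assignment by nearest start, subsets of the lists, merging, the overlap rule, the distance to a start and the window searched.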

Additional observations from a re-analysis of the deposited data

How the results depend on the processing

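Of 78 values recomputed under other settings, 63 stayed within 1.5 times the count or within the interval of the share, and 15 did not. Some could not change, such as the Etv5 counts where only the Etv4 list was shortened to equal numbers. The intervals of the shares were also wide, for example 50.1 to 93.2% for the overlap of Etv5 regions. Within 20 kb of the genes, 23 Etv4 and 4 Etv5 regions were left, Etv5 regions were listed at 4 members, and 100% of the Etv5 regions overlapped an Etv4 region. With regions kept only where the nearest protein-coding start was the member's, Etv5 regions were listed at 5 members. The longer 50% of each list and the first 50% by number both left 22 Etv4 and 10 Etv5 regions, and equal numbers of regions left 24 Etv4 regions. Etv4 was near a start at 2 members at 1 kb (16.3% of all protein-coding genes), and Etv5 at 1 member (Lif) at 5 kb (13.3%). The ETS share was 0% (Etv4) and 5.88% (Etv5) in 200 bp (list-wide 5.0 and 3.51%), and 18.4% of whole Etv4 regions. Counts can only fall with a smaller distance or list and rise with a larger one. For the shares, the cause was not tested. Without the mostly multicopy region, Ccl2 had no region and 7 members had an Etv5 region. No paired analysis was possible because there was 1 library per antibody, and for the same reason no replicate could be left out. The unknown depth limits any statement that a region is absent.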
